A study of Mus musculus with 24 samples.

Results

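The collagen genes other than those of type IV were followed in mouse cells that had lost Mof. Members were all genes whose symbol had the form Col, number, a, number, with Col4a1 to Col4a6 left out, which gave 38 of the 43626 genes listed for embryonic fibroblasts. RNA was sequenced from mouse embryonic fibroblasts (MEFs) and from MPC5 cells, a line of mouse podocytes, the epithelial cells that wrap the filtering capillaries of the kidney. MOF, the product of Kat8, is an acetyltransferase of histone H4, and Adriamycin (doxorubicin) is an anthracycline that damages DNA. The 8 groups had 3 samples each, 24 in all. Those in MEFs were Mof knockout with Adriamycin, wild type with Adriamycin, Mof knockout with vehicle and wild type with vehicle, all at passage 2, with Adriamycin at 0.1 µg/ml for 24 h. Those in MPC5 cells were Mof knockdown with Adriamycin, scramble with Adriamycin, Mof knockdown with vehicle and scramble with vehicle, all differentiated cells at passage 20, with Adriamycin at 0.25 µg/ml for 24 h. How Mof was deleted or knocked down, the strain and age of the embryos and the number of clones are not given in the labels. Nor do the labels tell if replicates came from separate cultures, so the p-values may reflect technical spread only.

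Collagens are triple helices of 3 chains, and each chain is encoded by a Col gene. Fibrillar collagens (types I, II, III, V, XI, XXIV and XXVII) form the rope-like fibrils of connective tissue, with types V and XI at the core of the fibril, where they set its diameter. FACIT collagens (fibril-associated collagens with interrupted triple helices) sit on the fibril surface, type VI builds beaded filaments around cells, types VIII and X form lattices, and type VII anchors basement membranes to the fibrils beneath. The multiplexins, types XV and XVIII, lie in basement membrane zones and release the antiangiogenic fragments restin and endostatin. Fibroblasts make most of the fibrillar collagen of the body, whereas podocytes lay down the basement membrane of the glomerulus.

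In outline, Mof knockout MEFs had less RNA for several chains of the fibril and its surface, among them Col11a1, Col12a1, Col5a2 and Col1a2. They had more RNA for Col18a1, Col11a2, Col20a1, Col9a3 and Col22a1, of which all but Col18a1 had a mean normalized count of at most 231 in these cells. These 9 genes changed the same way with Adriamycin and with vehicle, though Col1a2 only just passed the authors' test with Adriamycin (adjusted p 0.0451). Col1a1, the gene for the main chain of type I collagen, passed the test in neither condition in MEFs. In MPC5 podocytes given Adriamycin, Mof knockdown cells had less RNA for Col11a2, Col27a1, Col5a1, Col20a1 and Col16a1 and more for Col12a1, Col2a1 and Col6a1.

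All values come from 4 tables that the authors made with DESeq2, each setting Mof-depleted cells against their controls within 1 cell type and drug condition. A value is the log2 fold change, Mof-depleted over control, with its standard error (SE). The mean normalized count of a gene is its mean over all samples of a table, and no table holds a value per sample. Group levels below were therefore computed from that mean and the fold change and are called implied levels. DESeq2 can pull the fold changes of genes with few reads towards 0, which would bring the 2 implied levels of such genes closer together. Kat8 itself was lower in all 4 comparisons, at -1.71 ± 0.16 (SE) with Adriamycin and -1.96 ± 0.20 with vehicle in MEFs in the authors' deposited table. In MPC5 cells Kat8 was at -1.24 ± 0.14 with Adriamycin and -1.49 ± 0.15 with vehicle in the authors' deposited table. Because Kat8 itself set the direction in which every fold change is read, its values are no check of the labels. Of the fibroblast markers, all 9 were detected in MEFs, where Vim had a mean normalized count of 106592 with Adriamycin and 111083 with vehicle. Of 8 podocyte markers, only Nphs1, the gene for nephrin, was under a mean count of 1 in MEFs, in both conditions. The summed mean count of the 8 was 5452 with Adriamycin and 5130 with vehicle. In each condition 6 of them were tested, with 1 higher and 1 lower in knockout MEFs with Adriamycin, and 2 higher with vehicle. The MPC5 tables hold only genes with an adjusted p below 0.05, so most podocyte markers could not be looked up there: 4 were listed with Adriamycin and 2 with vehicle, Synpo and Podxl in both.

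The promoters of 6 collagen genes that changed the same way in both MEF comparisons are shown here, 3 that were lower (Col1a2, Col5a1, Col11a1) and 3 that were higher (Col11a2, Col18a1, Col20a1). They are RefSeq sequences on GRCm38.p6, from 250 bases before to 50 bases after the annotated start, 5′ to 3′ on the strand of the gene. Capitals mark the GC box (GGGCGG), the CCAAT box (CCAAT), the TATA box (TATAAA) and the AP-1 site (TGANTCA). Each was searched on both strands, so a GC box on the opposite strand is printed as CCGCCC, and a CCAAT box there as ATTGG.
Col1a2, chr6:4505368-4505667, plus strand: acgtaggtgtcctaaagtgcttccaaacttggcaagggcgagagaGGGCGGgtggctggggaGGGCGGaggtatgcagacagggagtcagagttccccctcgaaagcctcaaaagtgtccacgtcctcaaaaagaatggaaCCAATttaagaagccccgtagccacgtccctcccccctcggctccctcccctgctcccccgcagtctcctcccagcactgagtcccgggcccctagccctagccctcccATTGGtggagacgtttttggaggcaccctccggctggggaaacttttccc
Col5a1, chr2:27886175-27886474, plus strand: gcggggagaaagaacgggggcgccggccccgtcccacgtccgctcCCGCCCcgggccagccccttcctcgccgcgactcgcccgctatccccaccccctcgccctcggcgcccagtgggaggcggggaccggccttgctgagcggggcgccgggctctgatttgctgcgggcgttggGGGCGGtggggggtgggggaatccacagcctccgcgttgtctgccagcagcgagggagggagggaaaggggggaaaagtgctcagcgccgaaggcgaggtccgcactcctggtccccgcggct
Col11a1, chr3:114030290-114030589, plus strand: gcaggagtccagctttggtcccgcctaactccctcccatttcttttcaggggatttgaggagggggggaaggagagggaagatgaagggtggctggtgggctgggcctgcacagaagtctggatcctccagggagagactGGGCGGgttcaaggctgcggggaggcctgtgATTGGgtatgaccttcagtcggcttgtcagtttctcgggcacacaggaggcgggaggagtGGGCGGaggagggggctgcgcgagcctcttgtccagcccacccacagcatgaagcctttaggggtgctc
Col11a2, chr17:34038888-34039187, plus strand: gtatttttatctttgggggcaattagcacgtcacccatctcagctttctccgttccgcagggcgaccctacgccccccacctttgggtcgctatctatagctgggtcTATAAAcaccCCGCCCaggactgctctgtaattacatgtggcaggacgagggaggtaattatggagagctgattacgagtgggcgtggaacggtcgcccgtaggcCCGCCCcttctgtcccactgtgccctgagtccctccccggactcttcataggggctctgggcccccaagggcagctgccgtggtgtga
Col18a1, chr10:77166481-77166780, minus strand: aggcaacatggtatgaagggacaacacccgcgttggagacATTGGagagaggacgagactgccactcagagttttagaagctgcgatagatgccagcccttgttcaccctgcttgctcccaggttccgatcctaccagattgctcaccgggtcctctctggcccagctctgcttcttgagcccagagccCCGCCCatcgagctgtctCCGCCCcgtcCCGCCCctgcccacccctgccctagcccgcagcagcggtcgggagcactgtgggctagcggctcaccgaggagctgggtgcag
Col20a1, chr2:180986285-180986584, plus strand: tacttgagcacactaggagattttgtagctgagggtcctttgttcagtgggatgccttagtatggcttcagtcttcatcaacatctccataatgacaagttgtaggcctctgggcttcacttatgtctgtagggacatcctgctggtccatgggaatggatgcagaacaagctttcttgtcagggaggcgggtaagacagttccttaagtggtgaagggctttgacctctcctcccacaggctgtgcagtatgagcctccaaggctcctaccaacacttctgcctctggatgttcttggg
The promoter table held 33 promoters of 30 members and none for Col1a1, Col2a1, Col5a2, Col9a3, Col12a1, Col14a1, Col22a1 and Col26a1. A GC box stood in 57.6% of the members' promoters and in 35.7% of all 32851 promoters of the table. A CCAAT box stood in 30.3% of the members' promoters, against 37.4% of all, and a TATA box in 15.2%, against 13.6%. An AP-1 site stood in 3.03% of the members' promoters and 7.81% of all. The E-box (CANNTG), not marked above, stood in 54.5% of the members' promoters, against 72.3% of all. The median GC content was 59.7% over the members' promoters and 52.7% over all. Col11a1 and Col11a2, which moved in opposite directions, each had 2 GC boxes, while Col20a1 had none of the 4 marked motifs in this window. Col18a1 has another promoter in the table, chr10:77113656-77113955, which held none of the 4 marked motifs. A match or its absence describes only these letters.

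Collagens other than type IV made up 1.58% of the summed mean normalized counts in MEFs with Adriamycin and 2.21% with vehicle. Fibrillar chains held 77.1% of these collagen counts with Adriamycin and 82.0% with vehicle, and the type I genes Col1a1 and Col1a2 alone held 49.7% and 57.3%. Per kb of exon (GENCODE M21), Col1a1 had the highest level, with a mean normalized count of 17786 per kb with Adriamycin and 27459 with vehicle, which made it the 21st and the 13th gene of the whole table. Col5a2 (4154 per kb), Col1a2 (3972) and Col5a1 (3369) came next with Adriamycin. With vehicle the order after Col1a1 was Col1a2 (7033 per kb), Col5a1 (5839) and Col5a2 (3800). Col12a1, Col3a1 and Col6a1 followed in both conditions, at 1212 to 2301 per kb. At the low end, Col13a1, Col6a6 and Col26a1 stayed below 1 per kb in both conditions. Summed over the 38 genes, the implied collagen count of knockout MEFs was 81.2% of that of wild-type MEFs with Adriamycin and 84.5% with vehicle. In bulk samples, fewer cells of a type and less RNA per cell cannot be told apart.

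**Figure D1:**
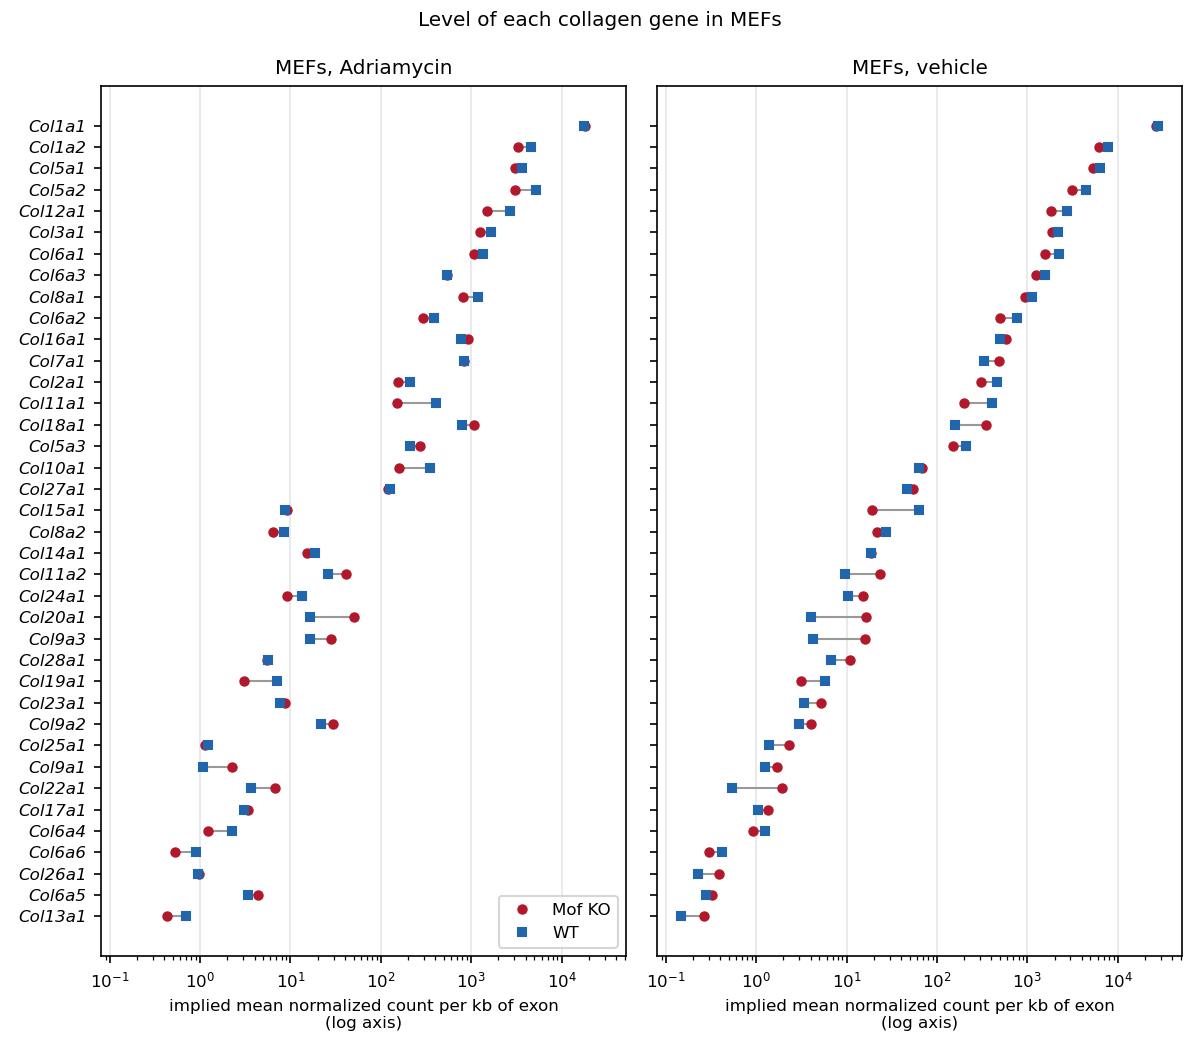
Implied mean normalized count per kb of exon of each of the 38 collagen genes in Mof knockout (red circles) and wild-type (blue squares) MEFs, on a log axis, with Adriamycin (left) and vehicle (right). Genes run down the page by their level per kb with vehicle. Levels span from 0.148 per kb for Col13a1 to 28044 per kb for Col1a1, and the grey line joins the groups of each gene.

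In MEFs given Adriamycin, 15 of the 34 collagen genes with an adjusted p passed the threshold of 0.05, 5 higher and 10 lower in knockout cells. That is 44.1% of the members, where 32.7% of all 14139 tested genes passed (16.6% higher and 16.1% lower). Their median log2 fold change was -0.09, against -0.02 over all tested genes. In MEFs given vehicle, 17 of 34 passed, 8 higher and 9 lower, where 37.5% of all 15605 tested genes passed (17.8% higher and 19.6% lower). The median there was -0.03, against 0.01 over all tested genes. At 2-fold or more, 4 members passed with Adriamycin, where 3.92% of all tested genes did, and 7 with vehicle, where 8.47% did. Col6a6, Col13a1 and Col26a1 had no adjusted p in either table, nor had Col9a1 with Adriamycin and Col6a5 with vehicle. Their mean normalized counts lay below the lowest of any gene with an adjusted p (13.9 with Adriamycin and 4.37 with vehicle). The members were also counted by level, a split chosen after the values were seen and not tested. Of 17 members with a mean count of at least 1000 with Adriamycin, 1 was higher and 7 were lower, where 27.8% of all genes of that level were higher and 12.3% lower. With vehicle, 3 of 16 such members were higher and 8 lower, where 26.2% and 21.3% of all genes of that level were. Of the 12 tested members with a mean count below 100 with vehicle, 4 were higher and none lower, where 666 of all 5108 genes of that level were higher and 282 lower. With Adriamycin, 2 of 13 tested members of that level were higher and 2 lower, where 295 of all 3445 genes were higher and 317 lower. Of those between the bounds, 2 of 4 were higher and 1 lower with Adriamycin, and of 6 with vehicle 1 was higher and 1 lower. Among all genes of that level, 12.6% were higher and 22.9% lower with Adriamycin, and 16.0% higher and 30.2% lower with vehicle.

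**Figure D2:**
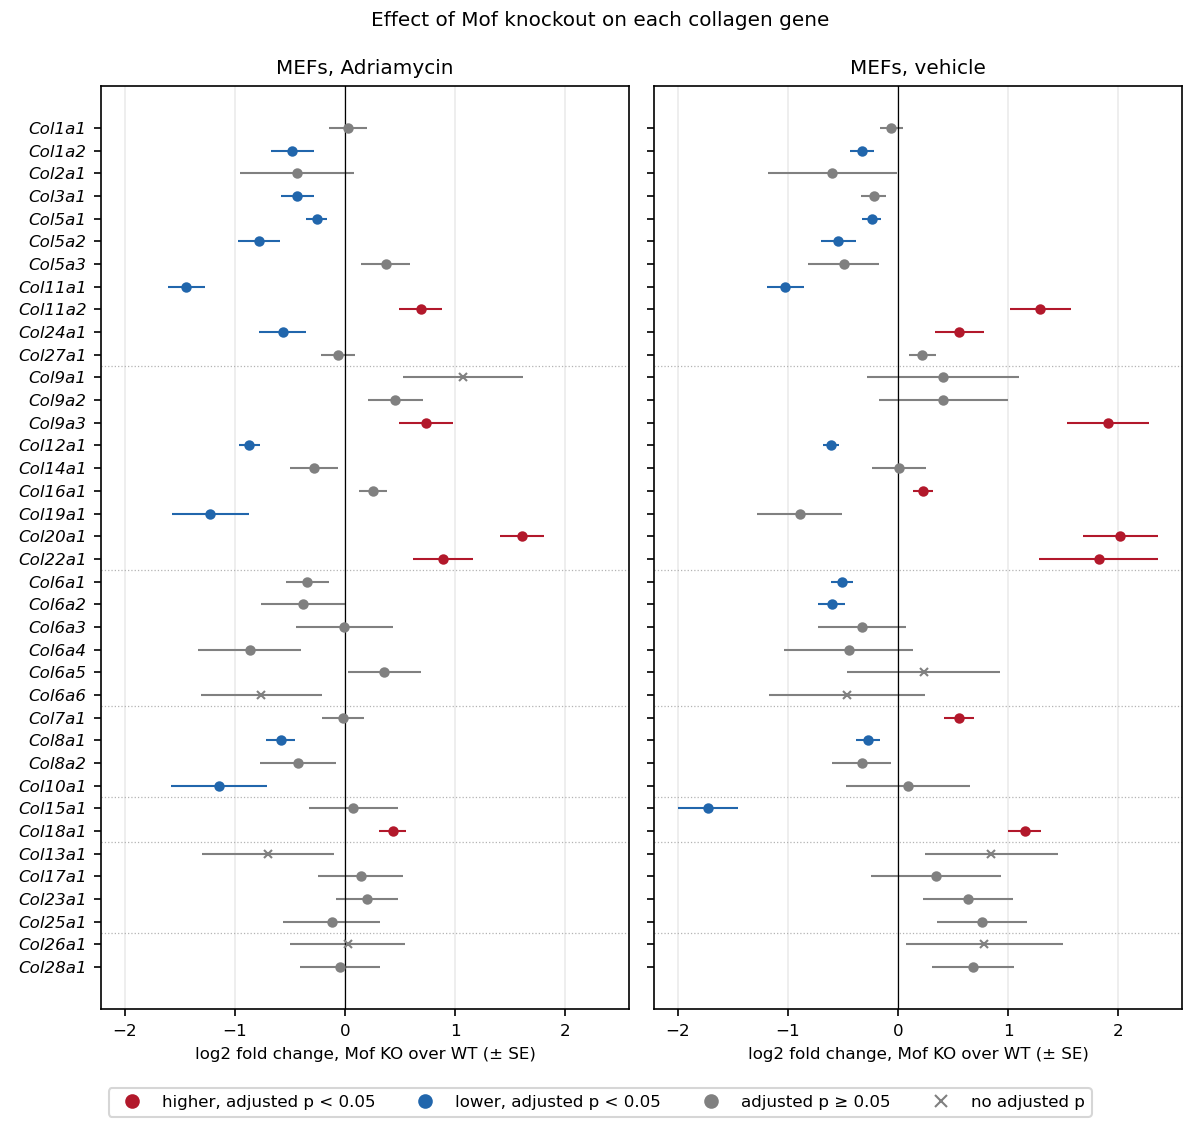
Log2 fold change, Mof knockout over wild type, of each collagen gene in MEFs with Adriamycin (left) and vehicle (right), with bars of 1 SE from the authors' deposited tables. Genes are grouped from top to bottom as fibrillar, FACIT, type VI, network and anchoring, multiplexin, transmembrane and other collagens. Red and blue mark adjusted p below 0.05 (higher and lower), grey circles the rest and crosses genes with no adjusted p. Col11a1 and Col12a1 lie left of 0 in both panels and Col11a2, Col20a1 and Col18a1 right of it, while Col15a1 lies near 0 with Adriamycin and at -1.73 with vehicle.

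Of the 11 fibrillar genes, 1 was higher and 6 were lower in knockout MEFs with Adriamycin, and 2 were higher and 4 lower with vehicle. Over all tested genes, 16.6% were higher and 16.1% lower with Adriamycin, and 17.8% higher and 19.6% lower with vehicle. Col1a1 had the highest level and the implied count was 117803 in knockout and 115661 in wild-type MEFs with Adriamycin. With vehicle it was 176372 in knockout and 184051 in wild-type MEFs. Its log2 fold change was 0.03 ± 0.17 with Adriamycin (95% interval -0.31 to 0.36) and -0.06 ± 0.11 with vehicle (-0.27 to 0.15) in the authors' deposited table. Col1a2, the gene for the other chain of type I collagen, fell to an implied 41247 in knockout cells, against 57460 in wild-type cells, with Adriamycin. With vehicle Col1a2 was at 77478 in knockout and 97310 in wild-type cells. These are log2 fold changes of -0.48 ± 0.20 (adjusted p 0.0451) and -0.33 ± 0.11 (adjusted p 0.00925) in the authors' deposited table. Type I collagen is built from both chains. Whether the changes of Col1a1 and Col1a2 differ was not tested, since both come from the same samples and the tables hold no covariance.

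In the fibril core types V and XI, Col11a1, Col5a1 and Col5a2 fell, Col11a2 rose and Col5a3 passed in neither condition. Col11a1, the gene for a chain that seeds thin fibrils in cartilage and other tissues, was at an implied 1937 in knockout and 5262 in wild-type MEFs with Adriamycin. With vehicle Col11a1 was at 2521 in knockout and 5130 in wild-type MEFs. It fell by 2.72-fold with Adriamycin and 2.03-fold with vehicle, with log2 fold changes of -1.44 ± 0.17 (adjusted p 1.74e-15) and -1.02 ± 0.17 (adjusted p 1.82e-08) in the authors' deposited table. Col11a2, whose product pairs with that of Col11a1 in type XI collagen, rose. Its implied count was 285 in knockout and 177 in wild-type MEFs with Adriamycin, and 160 in knockout and 65.3 in wild-type MEFs with vehicle. Its log2 fold change was 0.69 ± 0.19 (adjusted p 0.00249) with Adriamycin and 1.29 ± 0.28 (adjusted p 2.13e-05) with vehicle in the authors' deposited table. Per kb of exon the implied Col11a1 count of knockout cells, 152 with Adriamycin and 198 with vehicle, was still above that of Col11a2, at 41.4 and 23.2.

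Col5a2, the gene for a chain of the type V collagen that nucleates type I fibrils, fell to an implied 29252 in knockout cells, against 50433 in wild-type cells, with Adriamycin. With vehicle Col5a2 was at 29679 in knockout and 43218 in wild-type cells. Its log2 fold change was -0.79 ± 0.19 (adjusted p 0.000358) and -0.54 ± 0.16 (adjusted p 0.00257) in the authors' deposited table. Its partner chain gene Col5a1 fell by 1.19-fold with Adriamycin and 1.18-fold with vehicle (-0.26 ± 0.10, adjusted p 0.0264, and -0.24 ± 0.09, adjusted p 0.0173, in the authors' deposited table). Whether the changes of Col5a1 and Col5a2 differ was not tested. Noncoding genes overlap Col5a1 on the other strand. Col5a3, the third type V chain gene, passed in neither, at 0.37 ± 0.22 with Adriamycin and -0.49 ± 0.32 with vehicle in the authors' deposited table. Of genes with a mean count within 2-fold of that of Col5a3, 97.7% had a smaller SE with Adriamycin and 98.7% with vehicle. Col3a1, whose product mixes with type I in the fibrils of skin and vessels, fell with Adriamycin (-0.43 ± 0.15, adjusted p 0.0147, in the authors' deposited table). With vehicle Col3a1 was at -0.22 ± 0.12 (adjusted p 0.120, in the authors' deposited table). Col5a2 and Col3a1 lie 24.6 kb apart on chromosome 1, on opposite strands.

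Col24a1, a fibrillar gene of developing bone, was the only collagen that passed in both MEF tables with opposite signs. With Adriamycin its implied count was 69.7 in knockout and 103 in wild-type MEFs, and with vehicle 116 in knockout and 79.1 in wild-type MEFs. The log2 fold changes were -0.57 ± 0.21 (adjusted p 0.0284) and 0.56 ± 0.22 (adjusted p 0.0317) in the authors' deposited table. Over all genes, 79 of the 2923 that passed in both MEF tables, or 2.70%, had opposite signs. Col27a1, a fibrillar gene of cartilage growth plates, did not pass (-0.06 ± 0.16 with Adriamycin, 0.22 ± 0.13 with vehicle, in the authors' deposited table).

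Col2a1, the gene for the fibril of cartilage, did not pass, and its error stood out. It was at -0.44 ± 0.52 with Adriamycin and -0.60 ± 0.59 with vehicle in the authors' deposited table, although its mean normalized count was 1693 and 3545. Genes of a like mean count (within 2-fold) had a median SE of 0.104 with Adriamycin and 0.0838 with vehicle, and at least 99.4% of them had a smaller SE than Col2a1. The same held for Col6a3 (SE 0.44 and 0.40) and Col10a1 (SE 0.44 and 0.56) in the authors' deposited table. The SE grows with the spread between samples, and the tables do not show which samples differed. Markers of chondrocytes, the cells that make Col2a1 and Col10a1, were low. Their summed implied count over 5 genes was 51.8 in knockout and 110 in wild-type MEFs with Adriamycin, and 102 in knockout and 325 in wild-type MEFs with vehicle. Of the tested chondrocyte markers, 1 of 2 fell with Adriamycin (Hapln1 at -1.45 ± 0.44, with Acan at -1.02 ± 0.48) and 2 of 3 with vehicle (Acan at -1.84 ± 0.35 and Matn3 at -2.19 ± 0.42) in the authors' deposited table, and Lect1 was under a mean count of 1 with vehicle. Hapln1 was at -0.21 ± 0.51 with vehicle in the authors' deposited table, and Matn3 had no adjusted p with Adriamycin. Over all tested genes, 16.1% were lower with Adriamycin and 19.6% with vehicle. The part of chondrocytes in the collagen values was not tested.

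**Figure D3:**
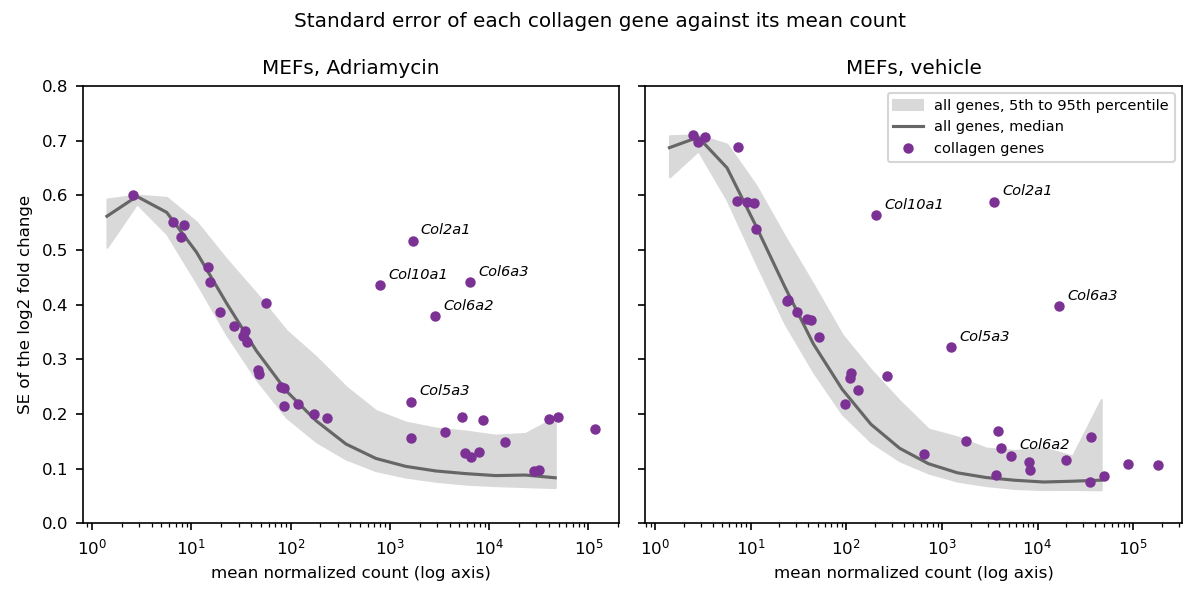
Standard error of the log2 fold change of each collagen gene (purple points) against its mean normalized count on a log axis, in MEFs with Adriamycin (left) and vehicle (right), with the median (line) and the 5th to 95th percentile (band) of all genes. Col2a1, Col6a3 and Col10a1 lie far above the band in both panels, and Col2a1 has an SE of 0.52 and 0.59.

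Of the FACIT genes, 3 of 8 tested were higher and 2 lower with Adriamycin, and 4 of 9 were higher and 1 lower with vehicle. Over all tested genes, 16.6% were higher and 16.1% lower with Adriamycin, and 17.8% higher and 19.6% lower with vehicle. Col12a1, whose product bridges fibrils in tendon, skin and muscle, had the highest level of the class and fell. Its implied count was 22596 in knockout and 41273 in wild-type MEFs with Adriamycin, and 27758 in knockout and 42332 in wild-type MEFs with vehicle. It had the smallest adjusted p of the family in both tables, with log2 fold changes of -0.87 ± 0.10 (adjusted p 2.50e-16) and -0.61 ± 0.08 (adjusted p 4.18e-14) in the authors' deposited table. Col20a1 rose 3.04-fold with Adriamycin and 4.05-fold with vehicle, the largest increase of the family in both. Its implied count was 258 in knockout and 84.8 in wild-type MEFs with Adriamycin, and 84.0 in knockout and 20.8 in wild-type MEFs with vehicle (log2 fold changes of 1.61 ± 0.20, adjusted p 2.27e-13, and 2.02 ± 0.34, adjusted p 4.43e-08, in the authors' deposited table). Another annotated gene, BX649560.1, overlaps exons of Col20a1 on the same strand, so the overlap could have affected the counts of both. With vehicle BX649560.1 had a mean normalized count of 289, against 52.4 for Col20a1, and a log2 fold change of 0.69. The part of this overlap in the Col20a1 values was not tested.

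Col9a3, the gene for a chain of the type IX collagen that decorates cartilage fibrils, rose to an implied 107 in knockout cells, against 64.1 in wild-type cells, with Adriamycin. With vehicle Col9a3 was at 61.4 in knockout and 16.4 in wild-type cells. The log2 fold changes were 0.74 ± 0.25 (adjusted p 0.0124) and 1.91 ± 0.37 (adjusted p 3.04e-06) in the authors' deposited table. Exons of Tcfl5 overlap Col9a3 on the other strand, and no source used here says if the counting was stranded. The other type IX genes did not pass: Col9a2 was at 0.46 ± 0.25 and 0.41 ± 0.59, and Col9a1 at 0.41 ± 0.69 with vehicle, in the authors' deposited table. Col9a3 and Col20a1 lie 364 kb apart on chromosome 2, on the same strand. Col22a1, known for the junction of muscle and tendon, rose (0.89 ± 0.27, adjusted p 0.00598, with Adriamycin and 1.82 ± 0.54, adjusted p 0.00310, with vehicle in the authors' deposited table), at mean normalized counts of 47.9 and 11.3. Col16a1, a minor component of fibrils and microfibrils, rose 1.17-fold with vehicle (0.23 ± 0.09, adjusted p 0.0306) and was at 0.25 ± 0.13 (adjusted p 0.115) with Adriamycin in the authors' deposited table. Col19a1 fell with Adriamycin (-1.22 ± 0.35, adjusted p 0.00307) and was at -0.89 ± 0.39 (adjusted p 0.0550) with vehicle in the authors' deposited table. Col14a1, a FACIT of mature connective tissue, was at -0.28 ± 0.22 and 0.01 ± 0.24 and passed in neither.

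The type VI genes Col6a1 and Col6a2, whose products join with that of Col6a3 in the classical type VI molecule, fell with vehicle. Col6a1 was at an implied 6923 in knockout and 9871 in wild-type MEFs, and Col6a2 at 4178 in knockout and 6346 in wild-type MEFs. The log2 fold changes were -0.51 ± 0.10 (adjusted p 1.46e-06) and -0.60 ± 0.12 (adjusted p 9.89e-06) in the authors' deposited table. With Adriamycin none of the 5 tested type VI genes passed, where 32.7% of all tested genes did. Col6a1 was then at -0.34 ± 0.20 (adjusted p 0.171) and Col6a2 at -0.38 ± 0.38 (adjusted p 0.468) in the authors' deposited table, with SEs larger than with vehicle. Col6a3 was at -0.01 ± 0.44 with Adriamycin and -0.33 ± 0.40 with vehicle in the authors' deposited table, with 95% intervals of -0.87 to 0.86 and -1.11 to 0.45. Col6a2 and Col6a1 lie 85.2 kb apart on chromosome 10, on the same strand.

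Among the network and anchoring collagens, Col8a1, the gene for a chain of the lattice made by vessel wall and corneal endothelial cells, fell in both conditions. It was at an implied 6279 in knockout and 9410 in wild-type MEFs with Adriamycin (-0.58 ± 0.13, adjusted p 9.05e-05, in the authors' deposited table). With vehicle Col8a1 was at 7350 in knockout and 8885 in wild-type MEFs (-0.27 ± 0.11, adjusted p 0.0408, in the authors' deposited table). Its partner Col8a2 was at -0.43 ± 0.34 and -0.33 ± 0.27 and did not pass. Col7a1, the anchoring fibril gene, rose 1.47-fold with vehicle, to an implied 4976 in knockout cells, against 3390 in wild-type cells (0.55 ± 0.14, adjusted p 0.000313, in the authors' deposited table). With Adriamycin Col7a1 was at 8531 in knockout and 8638 in wild-type MEFs (-0.02 ± 0.19). Col10a1, the collagen of hypertrophic cartilage, fell with Adriamycin to an implied 500 in knockout cells, against 1106 in wild-type cells (-1.15 ± 0.44, adjusted p 0.0299, in the authors' deposited table). With vehicle it was at 213 in knockout and 200.3 in wild-type MEFs (0.09 ± 0.56). Nt5dc1 overlaps Col10a1 on the other strand.

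The multiplexins moved apart with vehicle. Col18a1, the source of endostatin, rose in both conditions, to an implied 7461 in knockout cells, against 5534 in wild-type cells, with Adriamycin. With vehicle Col18a1 was at 2437 in knockout and 1100 in wild-type MEFs. The log2 fold changes were 0.43 ± 0.12 (adjusted p 0.00225) and 1.15 ± 0.15 (adjusted p 5.78e-13) in the authors' deposited table. Col15a1, the source of restin, fell with vehicle to an implied 123 in knockout cells, against 407 in wild-type cells (-1.73 ± 0.27, adjusted p 2.30e-09, in the authors' deposited table), the largest decrease of the family there. With Adriamycin Col15a1 was low in both groups, at 58.6 in knockout and 55.7 in wild-type MEFs (0.07 ± 0.40, adjusted p 0.912). The transmembrane genes Col17a1, Col23a1 and Col25a1 and the gene Col28a1 did not pass in either condition, with mean normalized counts of at most 47.1.

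To ask whether the drug condition altered the effect of Mof loss, the fold change with vehicle was subtracted from that with Adriamycin for each gene (z test on the SEs, Benjamini-Hochberg over all 13973 genes with an adjusted p in both MEF tables). Of the 33 collagens tested, 3 passed, 1 higher and 2 lower with Adriamycin, or 9.09%, where 7.09% of all genes passed (3.49% higher and 3.61% lower). Col18a1 differed by -0.72 ± 0.19 (SE, adjusted p 0.00646), Col24a1 by -1.12 ± 0.31 (adjusted p 0.00747) and Col15a1 by 1.80 ± 0.48 (adjusted p 0.00656). For Col18a1 the increase was smaller with Adriamycin, for Col24a1 the sign was opposite, and for Col15a1 a decrease was seen with vehicle alone. Next in order were Col9a3 at -1.17 ± 0.45 (adjusted p 0.0896) and Col7a1 at -0.57 ± 0.23 (adjusted p 0.120), which did not pass. Of the 33 differences, 24 were below 0, with a median of -0.28, against -0.02 over all genes tested. Both tables called 12 collagens, which is 12 of the 15 called with Adriamycin and 12 of the 17 called with vehicle, and 11 of these had the same sign. Over all genes, 2923 passed in both conditions, of 4622 called with Adriamycin and 5851 with vehicle, and 79 of the 2923 had opposite signs. The z test treats the deposited fold changes as they are, so unequal shrinkage between the tables can enter it.

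The wild-type levels that these effects start from differed between the drug conditions. The 2 tables were normalized separately, so these ratios carry no test. The implied Col18a1 count of wild-type MEFs was 5534 with Adriamycin and 1100 with vehicle, a ratio of 5.03, and that of Col10a1 was 1106 with Adriamycin and 200.3 with vehicle. Col7a1 was at 8638 with Adriamycin and 3390 with vehicle. Lower with Adriamycin were Col15a1, at 55.7 against 407 with vehicle, Col6a3, at 6435 against 18651, and Col1a1, at 115661 against 184051.

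In MPC5 podocytes, 13 of the 38 collagen genes were listed as changed with Adriamycin, 5 higher and 8 lower in Mof knockdown cells, where 55.7% of all 17184 tested genes were listed (27.8% higher and 27.9% lower). With vehicle 6 were listed, 4 higher and 2 lower, where 14.3% of all 13876 tested genes were (8.7% higher and 5.64% lower). How many of the other members were tested is not known, since these tables leave out genes that did not pass. The counts here are therefore out of all members, tested or not. They cannot be read as above or below the shares of tested genes. At 2-fold or more, 9 members passed with Adriamycin and 1 with vehicle, where 14.9% and 2.22% of all tested genes did.

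The lowest value of the family was that of Col11a2 with Adriamycin. Its implied count was 284 in knockdown and 2302 in scramble podocytes, an 8.09-fold decrease (-3.02 ± 0.16, adjusted p 2.25e-77, in the authors' deposited table). With vehicle Col11a2 was at 189 in knockdown and 274 in scramble cells (-0.53 ± 0.16, adjusted p 0.0105, in the authors' deposited table). Other fibrillar genes fell with Adriamycin too. Col27a1 was at 1330 in knockdown and 7397 in scramble podocytes (-2.48 ± 0.14, adjusted p 1.96e-73, in the authors' deposited table). Col5a1 was at 1402 in knockdown and 5091 in scramble podocytes (-1.86 ± 0.05, adjusted p 5.90e-275, in the authors' deposited table). Col1a1 was low in podocytes, at 123 in knockdown and 196 in scramble cells (-0.68 ± 0.15, adjusted p 1.73e-05, in the authors' deposited table). Col2a1 rose to 171 in knockdown cells, against 61.8 in scramble cells (1.47 ± 0.19), and Col5a2 rose by 1.10-fold (0.14 ± 0.06, adjusted p 0.0347), both in the authors' deposited table.

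Col18a1 had the highest level per kb of the collagens listed in podocytes, in whose basement membrane its product is a known component. With Adriamycin it fell, at an implied 17960 in knockdown and 23997 in scramble cells (-0.42 ± 0.05, adjusted p 1.13e-17, in the authors' deposited table). With vehicle it rose, at 19499 in knockdown and 10034 in scramble cells (0.96 ± 0.18, adjusted p 2.71e-06, in the authors' deposited table). Col16a1 (-1.33 ± 0.07 with Adriamycin, 0.54 ± 0.17 with vehicle) and Col5a1 (0.32 ± 0.09 with vehicle) also had opposite signs in the authors' deposited tables. Col12a1 rose in both, by 1.56 ± 0.10 and 0.75 ± 0.19, and Col7a1 fell in both, at -0.83 ± 0.22 and -1.13 ± 0.21, in the authors' deposited tables. Listed with Adriamycin alone, beside Col27a1, Col1a1, Col2a1 and Col5a2 above, were Col20a1 (-1.43 ± 0.14) and the type VI genes Col6a1 (1.23 ± 0.20) and Col6a6 (1.43 ± 0.55), the last at a mean count of 8.56, in the authors' deposited table. Of the 6 collagens listed in both podocyte tables, 3 had opposite signs, where 34.3% of the 1518 genes listed in both did. Listing depends on the threshold, so the difference between drug conditions was not tested in podocytes.

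**Figure D4:**
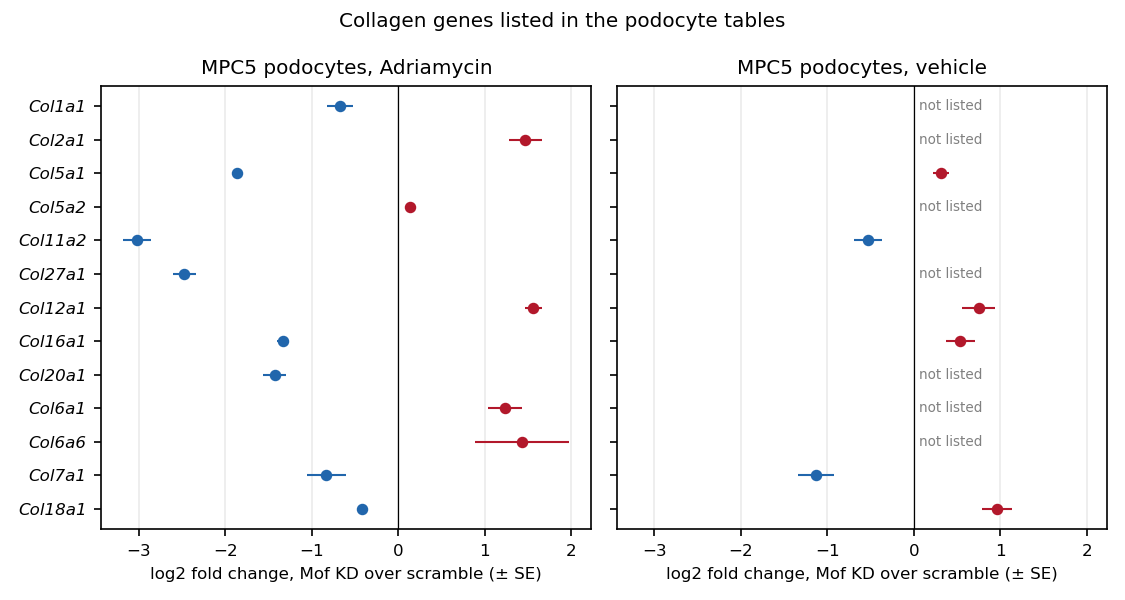
Log2 fold change, Mof knockdown over scramble, of the 13 collagen genes listed in at least 1 podocyte table, with Adriamycin (left) and vehicle (right) and bars of 1 SE from the authors' deposited tables. Red marks higher and blue lower in knockdown cells, all at adjusted p below 0.05. Col11a2 at -3.02 and Col27a1 at -2.48 lie farthest left with Adriamycin, and Col18a1, Col16a1 and Col5a1 lie on opposite sides of 0 in the panels.

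MEFs and podocytes differ in cell type, dose and means of Mof depletion, so their values are set side by side without a test. With Adriamycin, 6 collagens passed in both cell types. Col5a1 fell in both, and the other 5 had opposite signs: Col11a2 and Col20a1 rose in MEFs and fell in podocytes, as did Col18a1, while Col12a1 and Col5a2 fell in MEFs and rose in podocytes. Over all genes, 74.5% of the 3191 that passed in both cell types with Adriamycin had opposite signs. With vehicle, 6 collagens passed in both, and Col16a1 and Col18a1 rose in both. The other 4, Col11a2, Col12a1, Col5a1 and Col7a1, had opposite signs, where 38.7% of 890 genes did.

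The genes that modify, export, trim, crosslink, bind and degrade collagen were followed in MEFs as 8 lists. Their counts stand beside the shares of all tested genes, 16.6% higher and 16.1% lower with Adriamycin, and 17.8% higher and 19.6% lower with vehicle, and no list was tested as a whole. In the enzymes that hydroxylate and glycosylate the chains, 3 of 14 tested genes were higher and 1 lower with Adriamycin, and 3 of 15 were higher and 3 lower with vehicle. P4ha3, a catalytic subunit of prolyl 4-hydroxylase, fell by 1.13 ± 0.22 with Adriamycin and by 1.19 ± 0.11 with vehicle, and Plod2, which hydroxylates lysines for crosslinks, rose by 0.47 ± 0.13 and 0.55 ± 0.08, in the authors' deposited tables. In folding and secretion, 4 of 14 were higher and 2 lower with Adriamycin, and 2 of 14 higher and 3 lower with vehicle. Sec31a, a coat protein of the vesicles that leave the endoplasmic reticulum, rose by 0.43 ± 0.08 and 0.48 ± 0.07 in the authors' deposited tables. Hsp90b1 had the smallest adjusted p of this list with vehicle. It fell there (-0.64 ± 0.08) and was at -0.12 ± 0.07 with Adriamycin in the authors' deposited tables. Serpinh1, the collagen chaperone HSP47, fell with vehicle (-0.29 ± 0.09) and was at 0.03 ± 0.08 with Adriamycin in the authors' deposited tables.

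Beside the same shares (16.6% higher and 16.1% lower with Adriamycin, 17.8% and 19.6% with vehicle), the next 3 lists gave these counts. Of the proteases and enhancers that trim procollagen, none of 7 was higher and 1 was lower with Adriamycin, and 3 were higher and 2 lower with vehicle. Tll1, a tolloid-like procollagen C-proteinase, fell by 1.19 ± 0.22 with Adriamycin and by 1.18 ± 0.09 with vehicle, while its relative Bmp1 rose by 0.46 ± 0.09 with vehicle and was at 0.23 ± 0.10 with Adriamycin, in the authors' deposited tables. Of the 5 lysyl oxidases, 1 was lower in each condition, Lox with Adriamycin (-0.57 ± 0.18) and Loxl4 with vehicle (-0.35 ± 0.11), in the authors' deposited tables. In the other condition Lox was at -0.34 ± 0.27 and Loxl4 at -0.28 ± 0.15 in the authors' deposited tables. Of the fibril partners, 3 of 14 were higher and 1 lower with Adriamycin, and 6 of 14 higher and 1 lower with vehicle. Lumican (Lum), a small proteoglycan that spaces fibrils, rose by 1.30 ± 0.23 with Adriamycin and 2.42 ± 0.21 with vehicle, and decorin (Dcn) rose by 0.69 ± 0.27 and 1.42 ± 0.17, in the authors' deposited tables.

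Of the collagen receptors and uptake genes, 2 of 9 were higher and 1 lower with Adriamycin (16.6% and 16.1% of all tested genes), and 3 of 9 were higher and none lower with vehicle (17.8% and 19.6% of all). Mrc2, the receptor that takes up collagen for degradation, rose by 0.38 ± 0.11 and 0.48 ± 0.08, and Itga11, the alpha chain of a fibrillar collagen integrin, was lower with Adriamycin (-0.86 ± 0.27) and at -0.87 ± 0.38 (adjusted p 0.0569) with vehicle, in the authors' deposited tables. Of the collagen-degrading enzymes, 2 of 5 were higher with Adriamycin and 3 of 5 with vehicle, and none was lower. Mmp13, a collagenase, rose by 2.21 ± 0.21 with Adriamycin and 3.09 ± 0.21 with vehicle in the authors' deposited tables. Of the regulators of collagen genes, 2 of 9 were higher and 1 lower with Adriamycin, and 3 of 10 were higher and 1 lower with vehicle. Sox9, which activates Col2a1 and Col11a2 in cartilage, rose by 0.47 ± 0.12 and 0.75 ± 0.18, and scleraxis (Scx), a tendon factor, rose by 1.41 ± 0.24 with vehicle and was at 0.41 ± 0.19 with Adriamycin, in the authors' deposited tables. The lower gene was Runx2 with Adriamycin (-0.26 ± 0.11) and Ctgf with vehicle (-0.36 ± 0.13) in the authors' deposited tables. In the other condition Runx2 was at -0.28 ± 0.14 and Ctgf at -0.27 ± 0.18, and neither passed.

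**Figure D5:**
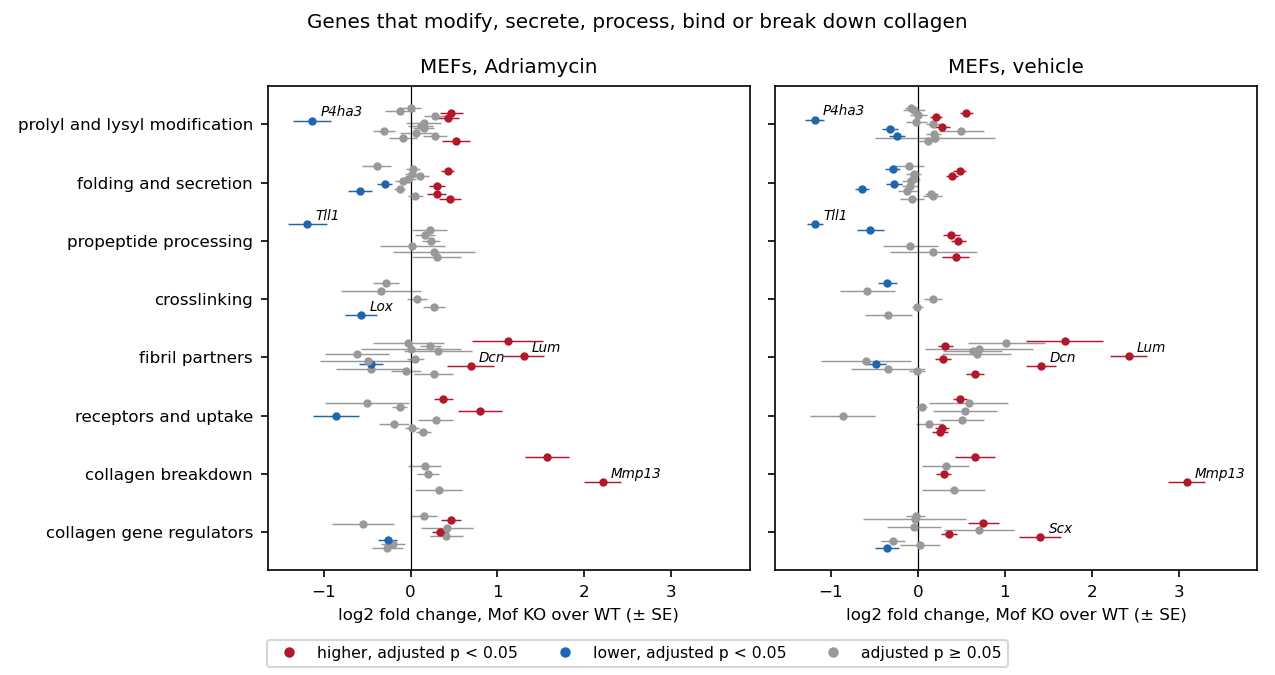
Log2 fold change, Mof knockout over wild type, of genes in 8 lists around collagen in MEFs with Adriamycin (left) and vehicle (right), with bars of 1 SE from the authors' deposited tables. Each point is a gene with an adjusted p, red where higher and blue where lower at adjusted p below 0.05, grey otherwise. Mmp13 lies farthest right and P4ha3 and Tll1 farthest left among the genes that passed, in both panels.

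In podocytes the same lists were read only as far as their members were listed, beside shares of 27.8% higher and 27.9% lower with Adriamycin and 8.7% higher and 5.64% lower with vehicle over all tested genes. Among the modifying enzymes, 2 were higher and 6 lower with Adriamycin, and 4 were higher with vehicle. The prolyl 3-hydroxylase gene Leprel1 rose in both (1.99 ± 0.11 with Adriamycin, 1.02 ± 0.10 with vehicle) and Lepre1 had opposite signs (-1.25 ± 0.08 and 0.60 ± 0.13) in the authors' deposited tables. In folding and secretion, 5 were higher and 8 lower with Adriamycin and 4 were higher with vehicle. In procollagen trimming, 3 were lower with Adriamycin, Bmp1 by the smallest adjusted p (-1.39 ± 0.05), and 1, Pcolce, was higher with vehicle (0.75 ± 0.11), in the authors' deposited tables. Bmp1 was not listed with vehicle, nor Pcolce with Adriamycin. Of the 5 lysyl oxidases, 2 were higher and 1 lower with Adriamycin, and 1 was higher with vehicle. Loxl4 (0.53 ± 0.06) and Loxl3 (0.82 ± 0.18) rose with Adriamycin, and Loxl1 was lower with Adriamycin (-0.94 ± 0.07) and higher with vehicle (0.65 ± 0.18) in the authors' deposited tables. Of the receptors, 3 were higher and 4 lower with Adriamycin and 3 higher with vehicle, and the collagen receptor gene Ddr1 was at -0.95 ± 0.05 and 0.45 ± 0.10 in the authors' deposited tables. Of the fibril partners, 2 were higher and 3 lower with Adriamycin and 3 higher and 1 lower with vehicle. Of the regulators, 2 were higher and 5 lower with Adriamycin and 2 higher and 2 lower with vehicle, with Sox9 at -1.54 ± 0.19 and 0.78 ± 0.24 in the authors' deposited tables. None of the 6 degrading enzymes was listed.

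Markers of other cells were read beside these results. Over all tested genes in MEFs, 16.6% were higher and 16.1% lower with Adriamycin, and 17.8% higher and 19.6% lower with vehicle. In MEFs the 9 fibroblast markers had 2 lower with Adriamycin (Fbn1 and Prrx1) and 1 lower with vehicle (Fbn1), which also stands among the fibril partners, and none higher. Of 7 macrophage markers, none passed with Adriamycin and 5 were higher with vehicle, with a summed implied count of 5262 in knockout and 3805 in wild-type MEFs with Adriamycin and 4160 in knockout and 2046 in wild-type MEFs with vehicle. None of the endothelial markers passed in MEFs. Of the epithelial markers, Krt5 was higher in both conditions, and of the muscle markers, Des was. Of the osteoblast markers, none had an adjusted p with Adriamycin and 2 of 6 were higher with vehicle, all at mean counts of at most 30.6. The part of such cells in the collagen values was not tested.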

How the data were processed

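RNA was extracted with a column kit and sequenced on Illumina instruments after poly(A) enrichment, per the labels' protocols. Of tools used by the authors, DESeq2 (1.4.1), featureCounts (1.4.5-p1) and the aligner TopHat2 (2.0.13) are named in the submitters' processing notes, as is the build GRCm38. The authors deposited 4 comparison tables, each of 6 samples in 2 groups. A gene's signal there is its mean count, divided by size factors by the authors. The authors deposited beside it the log2 fold change from DESeq2 with its standard error, a score (the Wald statistic), and a p-value before and after Benjamini-Hochberg adjustment. Whether the authors shrank the fold changes, the default of DESeq2 in that version, is not stated in any source used here. The largest SE in MEFs was 0.600 with Adriamycin and 0.710 with vehicle. Its median was lower at mean counts of 1 to 2 than of 2 to 4, a pattern that shrinkage gives.

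Since Kat8 should fall on Mof depletion, its sign fixed the direction as Mof-depleted over control. The MEF tables list 43626 genes each. For podocytes, rows stop at an adjusted p of 0.05, and the number tested (17184 with Adriamycin, 13876 with vehicle) was computed back from the deposited p-value and adjusted p-value of each gene. Values per sample are not in these tables, so depth per library is unknown, and no SD or left-out sample could be computed. A gene counted as changed at an adjusted p below 0.05. Implied group levels solve the deposited mean and fold change for 3 samples a group. The drug difference was a z test. Adjusted p-values of the tables are from DESeq2 as run by the authors. Members were followed by Ensembl ID, and coordinates and exon lengths come from GENCODE M21. Python 3.11.15, pandas 2.3.3 and scipy 1.17.1 were used.

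The members, the classes, the 8 related lists and the marker lists were chosen with earlier results of these data known. Every member could be named. Of each related list, genes to name were drawn from up to 4 a table, 2 in each direction, taken by smallest adjusted p. Not all of these are named. In MEFs the value of a named gene in the other condition is given as well. Alternatives were a threshold of 0.01, Bonferroni adjustment, a mean count of at least 100, a 2-fold minimum, adjustment over every gene with a p, and centring on the median of all genes.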

Additional observations from a re-analysis of the deposited data

Results flagged for a closer look

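The effect of Mof loss in MEFs differed between drug conditions for 3 collagen genes in the z test over all genes. For Col18a1 the difference, Adriamycin minus vehicle on the log2 scale, was -0.72 ± 0.19 (SE, 95% interval -1.09 to -0.34), an increase in both conditions that was smaller with Adriamycin. For Col15a1 it was 1.80 ± 0.48 (0.85 to 2.75), with a decrease that passed the test with vehicle and a value near 0 with Adriamycin, where the mean normalized count was 57.2, against 265 with vehicle. For Col24a1 it was -1.12 ± 0.31 (-1.72 to -0.52), lower with Adriamycin and higher with vehicle, each at mean normalized counts below 100. Of 7 macrophage markers, none passed with Adriamycin and 5 were higher with vehicle, where 16.6% and 17.8% of all tested genes were higher. Their summed implied count was higher in knockout than wild-type MEFs in both, at 5262 against 3805 with Adriamycin and 4160 against 2046 with vehicle. Whether these markers changed differently between the conditions was not tested, nor was their part in the collagen differences.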

How the results depend on the processing

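No paired analysis was possible because the deposited tables hold no value per sample, and for the same reason no replicate could be left out. Of the 15 collagens called in MEFs with Adriamycin, 9 passed at 0.01 (5 of them lower) and 3 under Bonferroni adjustment (1 higher, 2 lower). With Adriamycin, 3 of the higher had a mean count of at least 100, 4 passed at 2-fold or more (1 higher, 3 lower), and 6 were lower when adjusted over every gene with a p. That last setting ended the calls of Col1a2, Col5a1, Col10a1 and Col24a1 (adjusted p 0.0505 to 0.0860), and centring ended that of Col1a2 (adjusted p 0.0555). Of the 17 called with vehicle, 9 passed under Bonferroni adjustment (4 higher, 5 lower) and 7 at 2-fold or more (5 higher, 2 lower), and 4 of the higher had a mean count of at least 100. Adjustment over every gene ended the call of Col8a1 with vehicle (adjusted p 0.0607). In podocytes with Adriamycin, 3 were higher at 0.01, under Bonferroni adjustment and at a mean count of at least 100, and 5 were lower at 2-fold or more. In podocytes with vehicle, 1 was lower at 0.01 and at a mean count of at least 100, 2 passed under Bonferroni adjustment (1 higher, 1 lower), and 1 at 2-fold or more (0 higher, 1 lower). Where both MEF tables had to reach a mean count of 100, the drug difference was called for 1 collagen (0 higher, 1 lower), Col18a1, since Col15a1 and Col24a1 fall below that count. Centring changed the sign of 4 values near 0: Col7a1 (0.00076) and Col6a3 (0.011) with Adriamycin, Col14a1 with vehicle (-0.0027) and the drug difference of Col5a1 (0.012). Without depth per library or values per sample, the precision of each gene rests on its deposited SE. In MEFs the median SE was largest at mean counts of 2 to 4, at 0.598 with Adriamycin and 0.706 with vehicle. At mean counts of 1 to 2 it was lower, at 0.562 and 0.687.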

Other observations

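Genes of collagens that build the same molecule did not always move together. In type XI, Col11a1 fell and Col11a2 rose in knockout MEFs in both drug conditions, whereas in podocytes Col11a2 fell in both and Col11a1 was not listed. In type V in podocytes with Adriamycin, Col5a1 fell by 3.63-fold while Col5a2 rose by 1.10-fold. In MEFs Col5a1 and Col5a2 fell in both conditions. Col5a3 passed in neither, but with vehicle its 95% interval of -1.13 to 0.14 held the values of Col5a1 (-0.24) and Col5a2 (-0.54). Some wild-type levels in MEFs moved far between tables with no test, among them the FACIT gene Col9a2, at an implied 66.8 with Adriamycin and 9.33 with vehicle, and Col6a5, at 32.1 with Adriamycin and 2.59 with vehicle. Col8a2 went the other way, at 38.2 with Adriamycin and 121 with vehicle.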
